A study of Mus musculus with 4 samples.

Results

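Interferons are cytokines that cells release on infection, and that the thymus also makes in the absence of infection. Type I interferons bind the receptor chains IFNAR1 and IFNAR2 and type II interferon binds IFNGR1 and IFNGR2, and Janus kinases on these chains then activate STAT and IRF transcription factors. Complexes of STAT2 and IRF9, and single IRF proteins, bind a DNA element whose core repeats the letters GAAA, the interferon-stimulated response element, and the genes switched on in this way are called interferon-stimulated genes. In the thymus these genes are known to be read by thymocytes in the medulla, where CD4 or CD8 single-positive (SP) cells complete their maturation before export.

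The genes described here are 41 interferon-stimulated genes, chosen by symbol. Of these, 40 were found among the 21926 genes of the single-cell RNA tables and 1, Mx1, was not measured here. They comprise transcription factors (Irf1, Irf7, Irf9, Stat2), the ISG15 modifier and its protease (Isg15, Usp18), IFIT proteins (Ifit1, Ifit2, Ifit3), antiviral effectors (Isg20, Oasl2, Rsad2, Cmpk2, Bst2, Samhd1, Rtp4, Xaf1), the IFI27 pair (Ifi27, Ifi27l2a), nucleic acid sensors (Ifih1, Dhx58, Zbp1), HIN-200 proteins (Ifi203, Ifi206, Ifi209, Ifi213), interferon-inducible GTPases (Igtp, Irgm1, Ifi47, Gbp2, Gbp7), Schlafen proteins (Slfn1, Slfn2, Slfn5, Slfn8) and Ifi35, Trim30a, Parp14, Parp9 and Sp100.

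The study examined thymocyte development after loss of Eif4g2, a translation initiation factor related to eIF4G. One droplet library was made from the whole, unsorted thymus of a mouse with floxed Eif4g2 alleles and no Cre (called WT here, following the study), and 1 from a mouse with the same floxed alleles and CD4Cre (called cKO). Both mice were 5 weeks old, labelled female and given the same batch label, and the Cd4 promoter drives Cre from the double-positive (DP) stage, so that earlier thymocytes of the cKO mouse still carry the gene. Each genotype was represented by 1 mouse, so that no test between genotypes was possible. Intervals are 95% counting intervals (exact Poisson for levels, exact conditional binomial for ratios), and they do not cover the spread between mice or between cells.

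The WT library held 18355050 unique molecular identifiers (UMIs, each marking 1 captured RNA molecule) in 6014 barcodes and the cKO library 18056276 UMIs in 4335 barcodes, and 6012 and 4335 cells were kept. The median cell had 1734 UMIs in WT and 2140 in cKO. The 2 tables shared 1055 barcode names, which are running cell numbers. The WT library, although labelled female, held 2542 UMIs of Y-linked genes (Uty, Kdm5d and Eif2s3y) and the cKO library 1, so genotype, sex and the presence of Cre cannot be told apart in any difference between the libraries. Eif4g2 itself, the targeted gene, had 190 CPM in WT mature SP-like cells (CPM is the count of a gene scaled to 1000000 UMIs of the same cells) and 334 CPM in cKO. Counts per gene do not show which part of the transcript was read, so whether the floxed part was removed was not tested.

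Cells were assigned to stages by clustering without the interferon-inducible genes, and clusters were named from fixed markers. DP-like cells (3309 in WT, 2093 in cKO) carried all 8 DP markers, among them Cd4, Cd8a, Rag1 and Dntt. They fell into 2 clusters that largely followed the library, one with 3068 WT and 219 cKO cells and one with 241 WT and 1874 cKO cells. Mature SP-like cells (751 in WT, 229 in cKO) formed 1 cluster. Its leading genes included Ccr7, Ms4a4b, Klf2 and S1pr1, genes of thymocytes near export, but also Izumo1r, Tesc, Klk8 and Inpp4b. The cluster also held raised Itm2a, Egr2 and Cd5, early post-selection markers, and raised Foxp3, Tnfrsf4 and Tnfrsf18. Early post-selection-like cells (559 and 427) were led by Cd5, Tox and Egr1, genes of recent antigen receptor signalling. A further early post-selection-like cluster (107 and 100 cells) was led by Tnfrsf9, Nr4a1 and Ikzf2, and also held raised Foxp3, Tnfrsf4 and Tnfrsf18, markers of regulatory T cells.

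Promoter sequences were examined first, since the response element is the feature these genes are known to share. RefSeq windows on GRCm38.p6, from 250 bases before to 50 bases after each transcription start, were found for 32 of the 40 genes. The motif searched for was GAAA followed by any 2 bases and a second GAAA, on both strands. It occurred in 17 of these 32 genes (53.1%) and in 3.99% of all 27025 genes with such windows. A second motif, TTC and GAA with any 3 bases between, which reads the same on both strands and resembles the element bound after type II interferon, occurred in 8 of the 32 (25%) and in 9.55% of all genes. Of the 17 genes with the GAAA motif, sequences are given for the 10 that were transcription factors, among the 12 most abundant in mature SP-like cells or among the 4 highest or lowest by a ratio. Each sequence is 30 bases of the strand of the gene, 5′ to 3′, with the match in capitals (read as TTTC repeats where it lay on the other strand).
Isg15: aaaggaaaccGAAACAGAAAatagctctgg
Ifit1: ccagtctcagTTTCAGTTTCtcactgctga
Ifit3: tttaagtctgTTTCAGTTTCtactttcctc
Bst2: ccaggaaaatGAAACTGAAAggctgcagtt
Igtp: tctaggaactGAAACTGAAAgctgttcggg
Gbp7: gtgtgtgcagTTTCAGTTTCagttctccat
Ifi203: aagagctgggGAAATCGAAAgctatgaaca
Trim30a: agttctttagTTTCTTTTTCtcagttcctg
Stat2: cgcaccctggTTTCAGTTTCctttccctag
Ifih1: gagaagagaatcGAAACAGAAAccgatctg

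On GRCm38.p6 the Isg15 sequence is at chr4:156200865-156200894 (minus strand), where the match began 66 bases before the start and was the last of 3 overlapping matches. The Ifit1 sequence is at chr19:34640794-34640823 and that of Ifit3 at chr19:34583397-34583426 (both plus strand), and each of these genes held a second match farther upstream. The Bst2 sequence is at chr8:71537577-71537606 (minus strand) and is the nearer of 2 overlapping matches. The Igtp sequence is at chr11:58199512-58199541 and that of Gbp7 at chr3:142530273-142530302 (both plus strand). The Ifi203 sequence is at chr1:173942508-173942537 and that of Trim30a at chr7:104465210-104465239 (both minus strand). The Stat2 sequence is at chr10:128270266-128270295 (plus strand). In Ifih1, at chr2:62646206-62646235 (minus strand), the match began 33 bases after the start, inside the transcript. A match is a string of letters and not a shown binding site, and it did not sort the genes by their ratio between stages. The ratios that follow include genes with few UMIs. The 17 genes with a match had a median log2 ratio of mature SP-like over DP-like cells of 1.67 in WT and 1.65 in cKO, and the 15 without had 1.86 and 1.54. With a match the genes ranged in WT from Stat2 (−0.42) to Ifi213 (5.25), and without one from Slfn2 (0.66) to Slfn1 (5.69). Windows for Usp18, Rtp4, Ifi27, Ifi27l2a, Dhx58, Zbp1, Parp14 and Parp9 were not used here.

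The first question was at which stage thymocytes carried these RNAs. The 40 genes together made up 1402 CPM (1370 to 1434) in WT DP-like cells and 4996 CPM (4912 to 5082) in WT mature SP-like cells. In cKO they made up 1283 CPM (1246 to 1322) and 3395 CPM (3270 to 3523). The mature SP-like sum was therefore 3.56 times the DP-like sum in WT (log2 ratio 1.83, 1.79 to 1.88) and 2.65 times in cKO (1.40, 1.34 to 1.47). Early post-selection-like cells, at 1564 CPM in WT and 1515 CPM in cKO, lay 1.12 and 1.18 times above DP-like cells, so that most of the difference between DP-like and mature cells lay after this stage. Cycling cells had the lowest sums of the thymocyte stages, 730 and 618 CPM. DN-like cells, which lack both coreceptors, had 1812 and 1493 CPM.

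**Figure D1:**
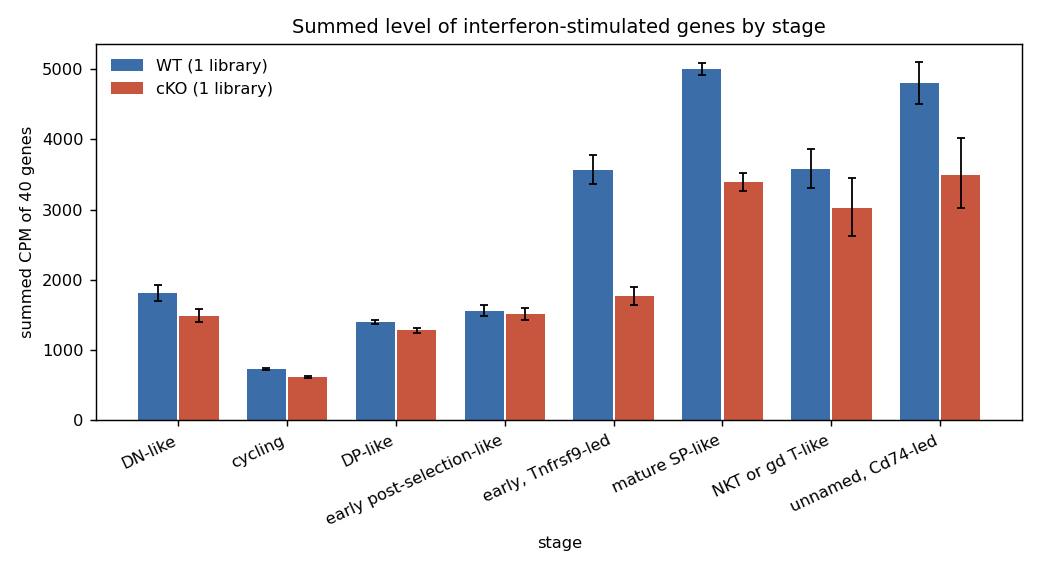
Summed CPM of the 40 genes (y axis) in the stages drawn (x axis), WT in blue and cKO in red, with 1 library each. Error bars are exact Poisson 95% intervals and cover counting only. Erythroid cells and a small cluster with cycling and mature SP markers, which summed to 5259 CPM in WT, are not drawn. The mature SP-like bars, at 4996 in WT and 3395 in cKO, stand above the DP-like bars at 1402 and 1283.

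The Tnfrsf9-led early cells departed from the other early cells in WT. Their sum was 3568 CPM in WT, 2.28 times that of the remaining early post-selection-like cells, and 1770 CPM in cKO, 1.17 times. Innate-like T cells (NKT or gamma delta T-like, 46 and 14 cells) had 3576 and 3020 CPM. An unnamed cluster led by Cd74 and other antigen-presentation genes, which mixed B cell, dendritic cell and macrophage markers (65 and 25 cells), had 4797 and 3496 CPM. The mature SP-like sum did not differ from that of the Cd74-led cluster beyond counting error in WT (log2 ratio 0.06, −0.03 to 0.15) or in cKO (−0.04, −0.25 to 0.17). In mature SP-like cells themselves most, but not all, lists of antigen-presenting cell markers were low. The summed level of 9 macrophage or monocyte markers was 18.0 CPM in WT and 9.69 CPM in cKO, and that of 4 cDC1 markers was 6.36 and 1.21 CPM, with Xcr1 and Clec9a at 0 UMIs in both. The 5 markers of migratory or type 2 dendritic cells summed to 8.98 and 3.63 CPM and the 5 B cell markers to 18.0 and 19.4 CPM. The 6 plasmacytoid dendritic cell markers, which include Ccr9, Tcf4 and Runx2, genes that T-lineage cells are also known to use, summed to 437.5 and 378 CPM, against 1190.0 and 873 CPM in DP-like cells and 688 and 1513 CPM in the Cd74-led cluster. Their part in the sums of the 40 genes was not tested.

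**Figure D2:**
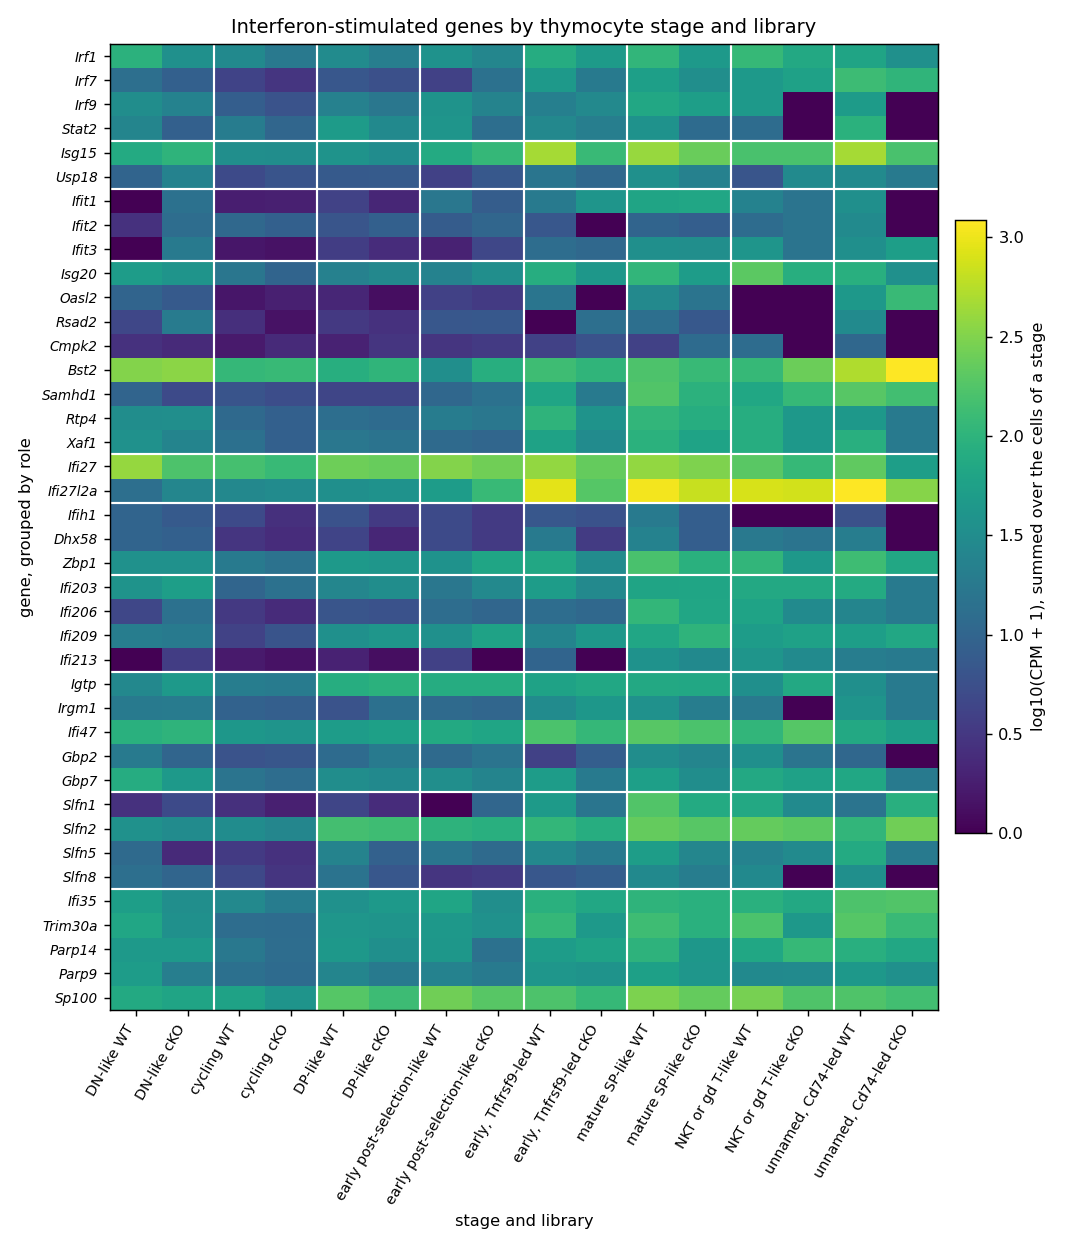
Level of each of the 40 genes (rows, grouped by role) by stage and library (columns), as log10 of summed CPM plus 1. Erythroid cells and a small cluster with cycling and mature SP markers are not drawn. Ifi27l2a and Isg15 are brighter in the mature SP-like than in the DP-like column of each library, while Igtp and Slfn2 are about as bright in both.

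Gene by gene, 28 of the 40 had at least 50 UMIs over the mature SP-like and DP-like cells of each library, and 16 of these 28 were higher in mature SP-like cells by more than 1 on the log2 scale in both libraries. Of all 7418 genes with as many UMIs, 2.63% were, and 12.7% were lower by that much, against 0 of the 28. The median log2 ratio of the 28 was 1.68 in WT and 1.17 in cKO, and that of all genes was −0.46 and −0.51. Low genes pass such a minimum more easily when they are high at 1 stage. Over all 40 genes, whatever their UMIs, the median was 1.79 in WT and 1.59 in cKO, and 37 were higher in mature SP-like cells in both libraries. The exceptions were Stat2 and Igtp, lower in both libraries, and Ifit2, at 8.98 CPM in mature SP-like and 5.55 CPM in DP-like cells of WT and 7.27 and 7.82 CPM in cKO. The share of all genes higher by any amount in both libraries was not counted.

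Ifi27l2a, which encodes a small interferon-induced membrane protein, was the most abundant of the 40 in mature cells. It stood at 33.9 CPM in WT DP-like cells and 36.2 CPM in cKO DP-like cells, and at 1079 and 670 CPM in mature SP-like cells. The log2 ratio was 4.99 (4.77 to 5.22) in WT and 4.21 (3.93 to 4.50) in cKO. Its chromosomal neighbour and relative Ifi27, on chromosome 12, was already at 253 and 230 CPM in DP-like cells and reached only 386 and 311 CPM in mature SP-like cells (log2 ratios 0.61 and 0.44). Ifi27l2a was also high outside the mature SP-like cells, at 906 CPM in the Tnfrsf9-led early cells, 782 CPM in the innate-like T cells and 1212 CPM in the Cd74-led cluster of WT.

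Isg15, a ubiquitin-like protein that is joined to other proteins after interferon, stood at 36.9 and 31.0 CPM in DP-like cells and at 407 and 239 CPM in mature SP-like cells of WT and cKO (log2 ratios 3.46 and 2.95). It was the 1 gene of 23 with enough UMIs that was already higher by more than 1 in early post-selection-like than in DP-like cells of both libraries, at 76.3 and 111 CPM. Of all genes 1.58% were. Usp18, the protease that removes ISG15 and restrains the type I receptor, was scarcer, at 6.51 and 6.66 CPM in DP-like and 34.4 and 21.8 CPM in mature SP-like cells.

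Among the transcription factors, Irf7, which amplifies type I interferon responses, had a log2 ratio of 3.19 in WT (5.93 CPM in DP-like, 54.3 CPM in mature SP-like cells) and 2.82 in cKO (4.63 and 32.7 CPM). Irf9, the DNA-binding subunit of the STAT2 complex, was higher by 1.69 and 1.77, and Irf1, which acts mainly after type II interferon, by 1.86 and 1.19. Stat2 went the other way. It stood at 48.6 CPM in DP-like and 36.3 CPM in mature SP-like cells of WT (log2 ratio −0.42, −0.77 to −0.08), and at 28.4 and 10.9 CPM in cKO, where the mature value rested on 9 UMIs. Exons of Irf7 overlap those of Phrf1 on the opposite strand and exons of Irf9 those of Rnf31 on the same strand, so that reads of these pairs may be uncertain.

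Beside Ifi27l2a, the highest ratios among genes with enough UMIs belonged to Slfn1, Samhd1 and Ifit1, which were scarce in DP-like cells. Slfn1, a Schlafen protein linked to growth arrest of thymocytes, stood at 3.44 and 1.45 CPM in DP-like cells and 177 and 76.3 CPM in mature SP-like cells (log2 ratios 5.69 and 5.72). Samhd1, which degrades deoxynucleotides, stood at 3.44 and 3.48 CPM and then 176 and 94.5 CPM (5.67 and 4.76). Ifit1, which binds viral RNA caps, stood at 3.06 and 1.16 CPM and then 62.1 and 66.6 CPM (4.34 and 5.85, the latter against 4 UMIs). Ifi213, with too few UMIs in cKO to count, stood at 0.96 and 0.29 CPM and then 36.3 and 27.9 CPM (5.25 and 6.59, against 5 UMIs and 1 UMI). By contrast Slfn2, needed for T cell quiescence, was at 145 and 132 CPM in DP-like cells and 229 and 189 CPM in mature SP-like cells (0.66 and 0.52).

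The interferon-inducible GTPases differed among themselves. Igtp stood at 82.1 and 91.5 CPM in DP-like and 72.6 and 69.1 CPM in mature SP-like cells (log2 ratios −0.18, −0.43 to 0.07, and −0.41, −0.84 to 0.00). Ifi47 stood at 50.3 and 55.0 CPM and then 190 and 160 CPM (1.92 and 1.54). Gbp7, a guanylate-binding protein, had ratios of 0.78 in WT and 0.18 in cKO. All 4 HIN-200 genes, whose products bind DNA, were higher in mature SP-like cells of both libraries, from 0.91 for Ifi209 to 5.25 for Ifi213 in WT. The sensors Zbp1, which binds Z-form nucleic acids, Ifih1 (MDA5) and Dhx58 (LGP2) lay between 1.79 and 2.79 in WT, although Ifih1 and Dhx58 had only 6 UMIs each in cKO mature SP-like cells. Bst2 (tetherin), Sp100 (a nuclear body protein), Trim30a and Ifi35 were at 165, 299, 132 and 102 CPM in WT mature SP-like cells, with log2 ratios over DP-like cells of 0.98, 0.70, 1.67 and 1.54. Genes of the HIN-200, Schlafen, guanylate-binding and Igtp families have near copies in the genome, and Igtp and Parp9 overlap exons of Irgm2 and Dtx3l, so the split of reads between such relatives is uncertain.

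**Figure D3:**
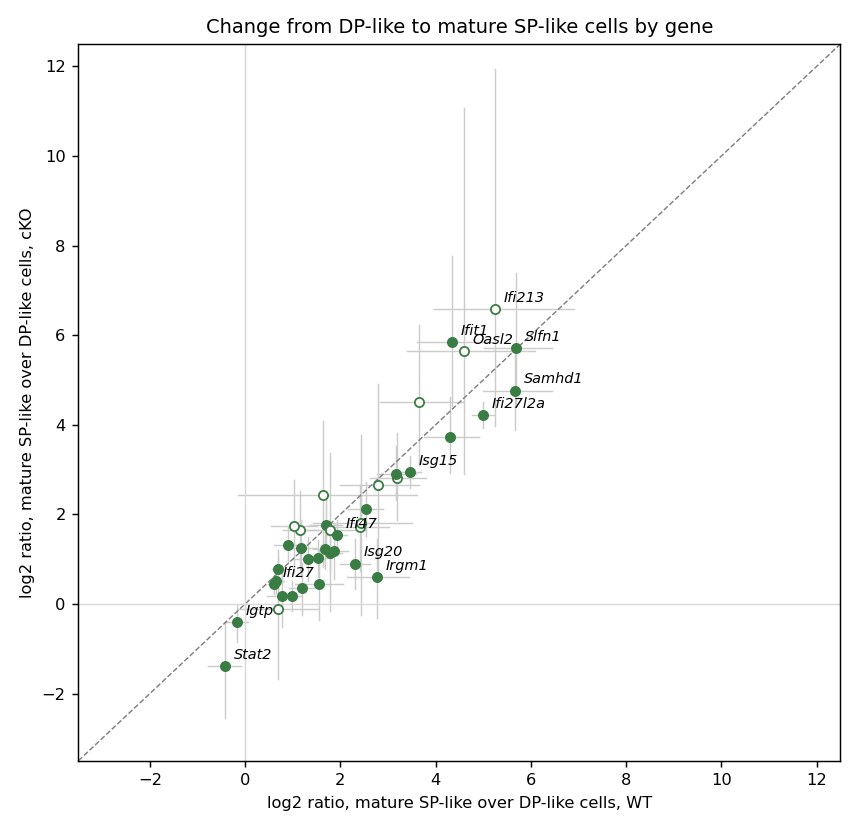
Log2 ratio of mature SP-like over DP-like cells in WT (x axis) and cKO (y axis), 1 point per gene; grey lines are 95% counting intervals, filled points have at least 50 UMIs in each library and the dashed line marks equal ratios. Stat2 and Igtp lie below 0 on both axes, and Slfn1 and Samhd1 lie farthest out among the filled points.

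Receptor and regulator genes of the pathway followed other courses. Ifngr1 was lower in mature SP-like than in DP-like cells, at 251 against 49.4 CPM in WT and 224 against 52.1 CPM in cKO, whereas Ifngr2, the other chain of the same receptor, was higher, at 38.1 against 86.5 CPM in WT and 22.3 against 39.98 CPM in cKO. Ifnar2 stood at 68.7 and 67.8 CPM in WT, and Ifnar1 at 64.7 and 41.5 CPM. Ifnlr1, the specific chain of the type III receptor, had 0 UMIs in both libraries. Socs1, which inhibits Janus kinases, was at 527 CPM in WT DP-like and 163 CPM in WT mature SP-like cells, and at 607 and 214 CPM in cKO. Of the kinases, Jak1 was at 292 and 397 CPM in WT and Jak2 and Tyk2 stayed between 29.9 and 34.8 CPM. Of 21 interferon genes looked up, 19 had 0 UMIs in both libraries, Ifnb1 among them. Ifng had 12 UMIs in WT, 10 of them in the 46 innate-like T cells, and 2 in cKO, both in those cells. A wider list held 87 measured interferon-inducible genes outside the 40. Its median log2 ratio was 0.72 in WT over the 55 with at least 50 UMIs and 0.05 in cKO over 34. These medians cover different genes, since fewer reached 50 UMIs in cKO, so they do not compare the libraries. For all genes with at least 50 UMIs in each library the medians were −0.46 in WT and −0.51 in cKO.

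Within mature SP-like cells, maturity was graded by comparing UMIs of late genes (S1pr1, Klf2, S100a10, Emb) with those of early genes (Cd24a, Cd69, Itm2a, Sox4, Tox). Of the late genes, Emb was also raised in both DP-like clusters. S100a10 was raised in the Cd5-led early post-selection-like cluster but not in the mature SP-like cluster. How well this grading follows maturity was not tested. Cells with more late than early UMIs made up 36.4% of WT (273 cells) and 35.8% of cKO (82 cells). Cells with more early than late UMIs were the larger class, with 57.0% of WT (428 cells) and 55.9% of cKO (128 cells). The 40 genes summed to 5691 CPM in late and 4349 CPM in early cells of WT (log2 ratio 0.39, 0.34 to 0.44), and to 3954 and 2926 CPM in cKO (0.43, 0.32 to 0.55). In WT Ifi27l2a carried much of this step, at 1494 CPM in late and 733 CPM in early cells. It made up a smaller part of the step in cKO, at 780.2 and 546 CPM. In WT 31 of the 40 genes were higher in late cells by any amount, where the median log2 ratio of all genes was −0.18. How many of all genes were higher in late cells by any amount was not counted. Samhd1 was among those that ran the other way in WT, at 147 CPM in late and 203 CPM in early cells. So were Ifi27, at 341 and 423 CPM, and Stat2, at 26.8 and 43.2 CPM. In WT 9 of the 36 genes with enough UMIs were higher in late cells by more than 0.5, against 5.67% of all genes. In both libraries 3 of 17 were (Ifi27l2a, Ifi203, Slfn1), against 2.35% of all genes.

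Cells with only Cd8a or Cd8b1 UMIs and cells with only Cd4 UMIs were compared next. In WT the sum was 5167 CPM in 263 CD8-only cells and 4731 CPM in 165 CD4-only cells. Of the 30 genes with enough UMIs, Ifit1, Igtp and Parp9 were higher in CD8-only cells by more than 0.5 and Samhd1, Ifi213 and Slfn5 lower, which is 3 in each direction where 9.88% and 12.3% of all genes were. In cKO the order of the sums was the opposite, with 2846 CPM in 55 CD8-only cells and 3971 CPM in 50 CD4-only cells, of which 1 cell held 19.1% of the UMIs of the 40 genes. By the median cell the order was that of WT, at 2027 CPM in CD8-only and 1857 CPM in CD4-only cells of cKO and 4088 and 3488 CPM in WT. Among late cells the WT sums were 6034 CPM for CD4-only and 5544 CPM for CD8-only cells, and the cKO sums 6551 and 2984 CPM. The cKO late CD4-only value came from 17 cells, and 1 cell held 35.2% of its UMIs of the 40 genes. By the median cell, late CD4-only cells had 4538 CPM in WT and 3347 CPM in cKO, and late CD8-only cells 4753 and 2027 CPM. The median cell was thus lower in cKO in both. Ifi27l2a in late CD8-only cells stood at 1439 CPM in WT and 586 CPM in cKO, and Isg15 at 467 and 172 CPM. NKT or gamma delta T markers, 7 genes in all, summed to 669.7 and 338 CPM in these cells, and regulatory T cell markers, 6 genes, to 469 and 296 CPM. In late CD4-only cells they summed to 202 and 112 CPM and to 606 and 783 CPM. In early CD8-only cells they summed to 332 and 221 CPM and to 685.5 and 369 CPM. In early CD4-only cells they summed to 30.65 and 0 CPM and to 444 and 128 CPM. Their part in the difference was not tested.

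**Figure D4:**
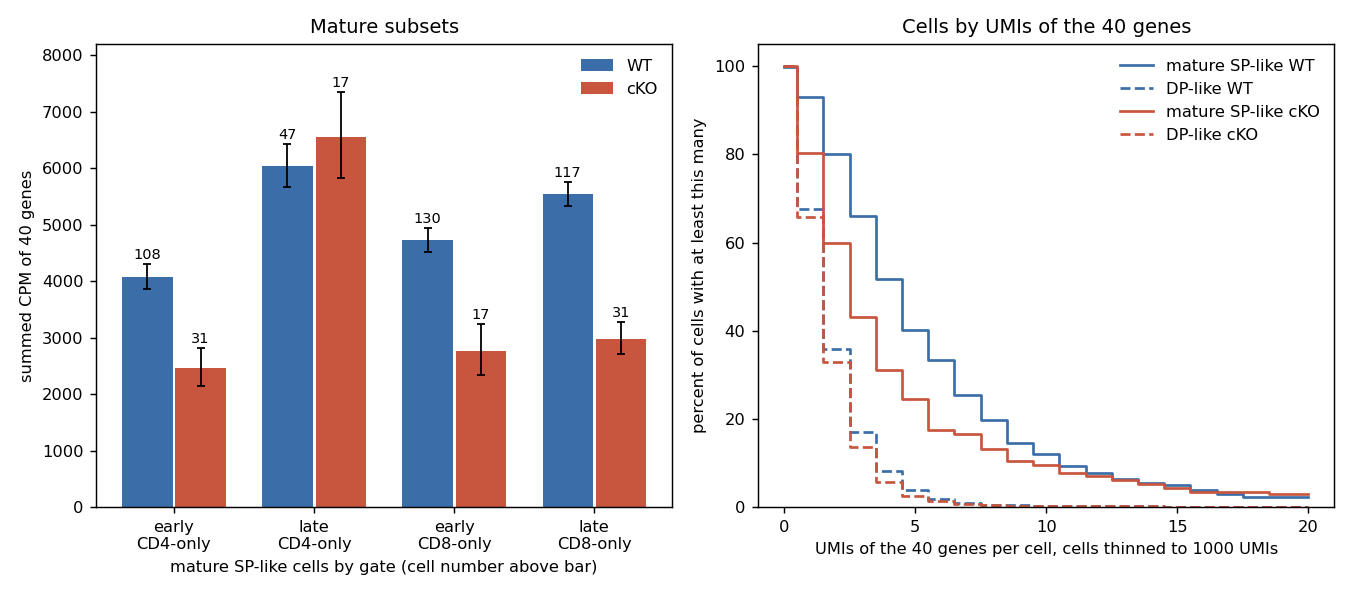
Left, summed CPM of the 40 genes (y axis) in mature SP-like cells split by maturity and coreceptor (x axis), with the number of cells above each bar and exact Poisson 95% intervals; right, percent of cells (y axis) with at least a given number of UMIs of the 40 genes (x axis) after every cell was thinned to 1000 UMIs. The cKO curve of mature SP-like cells runs below the WT curve up to about 15 UMIs and meets it there, and both DP-like curves lie lower.

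Single cells varied widely. After each cell was thinned to 1000 UMIs, 66.2% of WT (62.7 to 69.6, exact binomial) and 43.2% of cKO mature SP-like cells (36.7 to 49.9) had 3 or more UMIs of the 40 genes, against 17.0% and 13.6% of DP-like cells. Without thinning the shares were 91.5% and 81.2% against 32.2% and 30.5%, at median depths of 3269 and 3306 UMIs in mature SP-like and 1404 and 1360 UMIs in DP-like cells. The median mature SP-like cell had 4 such UMIs in WT and 2 in cKO after thinning. The variance between cells was 5.24 times the mean in WT and 7.36 times in cKO, where counting alone would give a ratio near unity. The tenth of cells with the most such UMIs held 33.5% of them in WT and 44.5% in cKO. An Ifi27l2a UMI was seen in 45.4% of thinned WT and 35.4% of thinned cKO mature SP-like cells, against 2.45% and 2.34% of DP-like cells, and an Isg15 UMI in 20.6% and 11.4% against 1.96% and 1.82%.

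The genes varied together between cells. In WT the 155 thinned mature SP-like cells with an Isg15 UMI had 7991 CPM of the other 39 genes, and the 596 without had 3738 CPM. In cKO the 26 cells with an Isg15 UMI had 11297 CPM and the 203 without had 2438 CPM. In the WT cells Zbp1 stood at 381 CPM with and 104 CPM without Isg15. Ifit1 stood there at 233 and 33.6 CPM, Rtp4 at 246 and 60.4 CPM and Slfn2 at 285 and 257 CPM. In cKO Slfn2 stood at 578 CPM with and 197 CPM without Isg15. With and without an Ifi27l2a UMI, Slfn2 stood at 338 and 200 CPM in WT and 309 and 203 CPM in cKO. The late maturation genes did not differ with Isg15 beyond counting error, at 976.3 CPM with and 976.5 CPM without it in WT (interval of the log2 ratio −0.27 to 0.26) and 771 and 906 CPM in cKO (−0.98 to 0.44). Split by an Ifi27l2a UMI, they were higher in the WT cells with it, at 1096 against 878 CPM (log2 ratio 0.32, 0.11 to 0.53), and stood at 1014 and 824 CPM in cKO (0.30, −0.12 to 0.71).

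The second question was how the levels differed between the cKO and WT libraries. In mature SP-like cells the sum was 0.680 times as high in cKO (log2 ratio −0.56, −0.62 to −0.50). In DP-like cells it was 0.915 times as high (−0.13, −0.18 to −0.07), with the 2 DP-like clusters holding different shares of each library as given above, and it was 0.088 above WT on the log2 scale (−0.03 to 0.21) when DP-like cells were taken by a marker gate in place of clusters. In early post-selection-like cells the sums did not differ beyond counting error (−0.05, −0.15 to 0.06). The ratio was −1.01 in the Tnfrsf9-led early cells and −0.28 in DN-like cells, which precede the action of Cre. In the Tnfrsf9-led cells the 6 regulatory T cell markers were lower too, at 2977 CPM in WT and 1378 CPM in cKO, and the 8 early post-selection markers stood at 3992 and 2473 CPM. Their part in the ratio of the 40 genes there was not tested. All genes together also leaned low in cKO, with a median log2 ratio of −0.26 in mature SP-like and −0.19 in DP-like cells.

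In mature SP-like cells 37 of the 40 genes had at least 50 UMIs. Past a log2 difference of 0.5, 21 of these lay lower in cKO and 1, Ifi209, lay higher, against 36.9% and 8.66% of all 6758 genes. The median of the 37 was −0.60. The excess over all genes depended on how mature cells and their UMIs were taken. The count of lower genes was 13 of 36 against 33.4% of all genes at a coarser clustering and 11 of 25 against 34.6% after thinning, and by a marker gate the 9 of 31 (29%) lay below the 31.7% of all genes. Restricted to late mature cells, 14 of 31 were lower, against 35.4% of all genes, with a median of −0.46 against −0.23. In DP-like cells 4 of 28 were lower (Irf1, Stat2, Slfn5, Slfn8) and 2 higher (Irgm1, Gbp2), against 30% and 8.36% of all genes. In the Tnfrsf9-led cells 6 of 9 were lower (Isg15, Ifi27, Ifi27l2a, Ifi47, Trim30a, Sp100), against 31%.

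The median of all genes was itself below 0, at −0.26, so a ratio below 0 was the more common direction. The share of all genes below 0 was not counted. The 12 most abundant genes of mature SP-like cells all had ratios below 0, although the intervals of Ifi47 and Ifi35 reached above it. Ifi27l2a stood at 1079 CPM in WT and 670 CPM in cKO (−0.69, −0.82 to −0.56), Isg15 at 407 and 239 CPM (−0.77, −0.996 to −0.549) and Sp100 at 299 and 225 CPM (−0.41, −0.65 to −0.18). Slfn1 stood at 177 and 76.3 CPM (−1.22), Samhd1 at 176 and 94.5 CPM (−0.90) and Zbp1 at 158 and 89.7 CPM (−0.81). The lowest ratios belonged to Stat2 (36.3 and 10.9 CPM, −1.74), Dhx58 (22.5 and 7.27 CPM, −1.63), Irf1 (107 and 44.8 CPM, −1.26) and Ifih1 (17.2 and 7.27 CPM, −1.24), 3 of them on 9 or fewer cKO UMIs. All 4 transcription factors, both genes of the ISG15 system, all 3 sensors, all 5 GTPases and all 4 Schlafen genes were below 0. The intervals of Irf9, Usp18, Igtp, Ifi47, Gbp2 and Slfn8 among them reached above 0, and Igtp (−0.07) and Ifi47 (−0.25) lay above the median of all genes.

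Among the 37 genes the 4 highest ratios belonged to IFIT and HIN-200 genes. Ifit1 had 62.1 (WT) and 66.6 CPM (cKO) (0.10, −0.37 to 0.55) and Ifit3 had 33.7 and 32.7 CPM (−0.04, −0.72 to 0.59). Ifi203 was at 62.5 and 64.2 CPM (0.04, −0.44 to 0.49). Ifi209 was higher in cKO, with 102 CPM against 65.1 CPM in WT (0.64, 0.25 to 1.03), and it was also higher in DP-like cells, at 34.6 and 40.8 CPM. The other HIN-200 genes Ifi206 and Ifi213 had ratios of −0.75 and −0.38, and Ifit2, on too few UMIs to count, had −0.31.

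**Figure D5:**
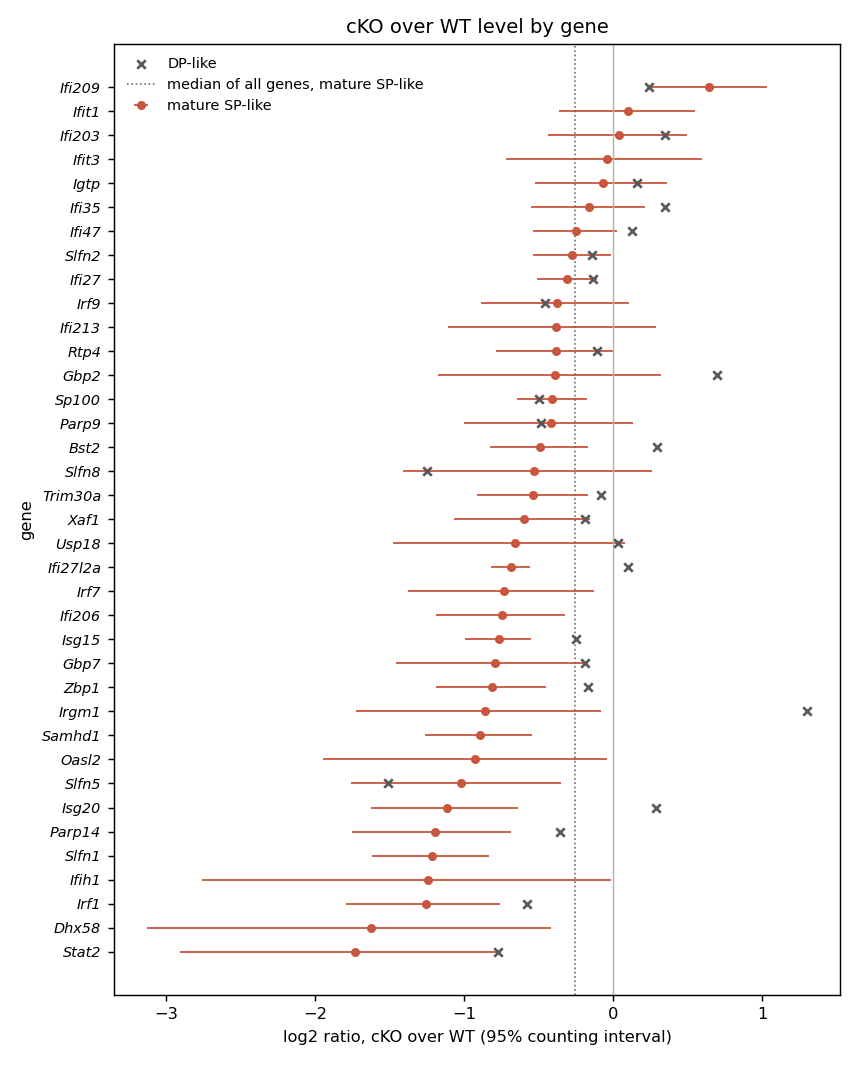
Log2 ratio of cKO over WT (x axis) in mature SP-like cells for the 37 genes with at least 50 UMIs (y axis), with 95% counting intervals in red; crosses give the DP-like ratio where it has at least 50 UMIs, and the dotted line is the median of all genes in mature SP-like cells, −0.26. Stat2 is lowest at −1.74 and Ifi209 highest at 0.64.

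The ratio of cKO over WT moved with the genomic length of a gene across the whole table. In mature SP-like cells the median log2 ratio of all genes was 0.07 for genes spanning up to 5 kb, −0.02 for 5 to 20 kb, −0.39 for 20 to 100 kb and −0.96 beyond 100 kb. None of the 36 genes of the list with a span lay beyond 100 kb. Of the 20 listed genes between 5 and 20 kb, 18 were below the median of all genes of that length, and 11 were lower than WT by more than 0.5, against 19.0% of all such genes. Of the 13 between 20 and 100 kb, 9 were below the median and 7 were lower by more than 0.5, against 42.9%. The 3 genes up to 5 kb, Irf7, Bst2 and Ifi27l2a, had a median of −0.69.

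Outside the list, 36 of 53 other interferon-inducible genes with enough UMIs were lower in cKO mature SP-like cells by more than 0.5 and 2 were higher, against the 36.9% and 8.66% of all genes, with a median of −0.83. Ly6a, the Sca-1 antigen, had 65.1 CPM in the WT library against 7.27 CPM in cKO (−3.16, −4.63 to −2.01). Ifngr2 was at 86.5 and 39.98 CPM (−1.11) and Jak1 at 397 and 270 CPM (−0.56), while Socs1 was at 163 and 214 CPM (0.39, 0.13 to 0.65). Markers of other cells also differed between the mature SP-like cells of the libraries. Those of regulatory T cells summed to 566 CPM in WT and 326 CPM in cKO, those of NKT or gamma delta T cells to 289 and 170 CPM and erythroid genes to 210 and 10.9 CPM, whereas 8 DP markers summed to 1802 and 1661 CPM. Markers of maturity summed to 2197 and 1689 CPM over 8 genes. Their part in the lower interferon-stimulated genes was not tested, and within late mature cells the log2 ratio of the summed 40 genes was −0.53 (−0.61 to −0.44).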

How the data were processed

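Single-cell RNA was measured in 1 thymus library of each genotype. The authors aligned and counted the reads with dnbc4tools (version 2.1.3 in the design text, 3.0 in the matrix header) on mm10, and deposited UMI counts per gene and cell barcode, in which no barcode had fewer than 1000 UMIs. Oligonucleotide libraries of the same samples were not analysed here. How reads shared between genes were counted is not given in the sources used here.

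Cells needed 50 or more detected genes and no more than 10% mitochondrial UMIs, thresholds that the study also gives. The study reports fewer cells of each genotype after its quality control than were kept here. No doublets were removed. One of the genes first chosen as a marker of late maturation is not reported here and was left out of every marker list and gate. Counts were scaled to 10000 per cell, logged and clustered jointly with scanpy 1.11.5 (2000 variable genes, 30 principal components, 20 neighbours, Leiden resolution 1, seed 1), leaving out 235 genes by list or name, among them the interferon-inducible ones. A cluster was named where at least 3 markers of a type were raised by more than 0.5 log2 and its leading genes did not contradict them. The early post-selection-like cells were split into 2 classes by cluster.

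Deposited counts were summed per stage and library and divided by all UMIs of that stage (CPM). Ratios used genes with at least 50 UMIs over both classes compared, and a gene counted as different past 1 log2 between stages or 0.5 log2 between genotypes, with no p-value. A class at 0 UMIs was set to 3 counts. Cells were thinned without replacement to 1000 UMIs for shares of cells. UMIs of 1 cell are not independent, so all intervals cover counting error only. Gene spans came from GENCODE M21, where 97.5% of gene identifiers matched with their version, and promoter windows from RefSeq. Ratios and thinning were tested on simulated data. Genes described by name were the 12 highest in mature SP-like cells, the 4 highest and 4 lowest by each ratio, the transcription factors and fixed pathway genes, with others added as examples. The genes, lists and rules were chosen with earlier results of these data known. Figures were drawn with matplotlib 3.10.9.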

Additional observations from a re-analysis of the deposited data

Results flagged for a closer look

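Several genes had ratios of cKO over WT that were positive in 1 stage and negative in another, each past 0.5 log2 with at least 50 UMIs. With 1 library per genotype these differences between stages were not tested. Isg15 had a log2 ratio of 0.54 (0.09 to 0.996) in early post-selection-like cells, against −0.77 in mature SP-like cells and −1.91 in the Tnfrsf9-led early cells, where it stood at 465 CPM in WT and 124 CPM in cKO. Ifi27l2a had 1.25 (0.74 to 1.76) in early post-selection-like cells, at 49.9 and 118 CPM, against −0.69 in mature SP-like cells and −2.28 in the Tnfrsf9-led cells, at 906 and 186 CPM. Zbp1 had 0.81 (0.17 to 1.45) in early post-selection-like and −0.81 in mature SP-like cells. Isg20, an exonuclease of viral RNA, had 0.52 (−0.34 to 1.39) and −1.12. Irgm1, an immunity-related GTPase, had 1.30 (0.58 to 2.05) in DP-like and −0.86 (−1.73 to −0.09) in mature SP-like cells, on 71 and 110 UMIs. Thinned to 1000 UMIs, the highest early post-selection-like cell held 39 UMIs of the listed genes in cKO and 20 in WT. The variance between early post-selection-like cells was 6.324 times the mean in cKO and 2.725 times in WT. Whether a few cells carried the positive ratios of Isg15, Ifi27l2a, Zbp1 and Isg20 was not tested.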

How the results depend on the processing

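Values are log2 ratios of the summed 40 genes or counts of genes, and the alternatives were planned. The higher sum in mature SP-like than in DP-like cells and the lower mature SP-like sum in cKO kept their direction under each alternative that gave a value. In WT the mature SP-like over DP-like ratio (1.83) was 2.02 and 2.06 at clustering resolutions 0.6 and 1.6, 1.95 with each library clustered alone, 2.08 with the 40 genes among the clustering genes, 2.06 by a marker gate per cell and 1.52 without Ifi27l2a. In cKO (1.40) it was 1.74 and 1.73 at the 2 resolutions, 1.52 with every cell weighted equally and by the marker gate, 1.56 after thinning and 1.13 without Ifi27l2a. The cKO over WT ratio of mature SP-like cells (−0.56) was −0.40 and −0.44 at the 2 resolutions, −0.75 with the 40 genes among the clustering genes, −0.45 by the marker gate, −0.47 with cells weighted equally, −0.44 after thinning and −0.53 in late mature cells. The DP-like ratio (−0.13) turned to 0.088 under the marker gate and lay between −0.15 and −0.08 otherwise. The 16 genes higher in mature SP-like cells of both libraries became 9 of 14 under the marker gate (2.6% of all genes) and 10 of 19 after thinning (2.16%), and lay between 14 and 22 otherwise. The 21 genes lower in cKO mature SP-like cells became 13 of 36 at resolution 0.6 (33.4% of all genes), 9 of 31 under the marker gate (31.7%) and 11 of 25 after thinning (34.6%), and lay between 14 and 23 otherwise. Thinning leaves fewer UMIs. The cause of these shifts, those after thinning included, was not tested.

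With each library clustered alone, no cKO cluster passed the naming rule for mature SP-like cells, so that the values that need them could not be given. No paired analysis was possible because each genotype had 1 library. Depth limits the scarce genes most: Stat2, Ifih1, Dhx58, Rsad2, Cmpk2 and Ifit2 had at most 9 UMIs in cKO mature SP-like cells. No estimate of the spread between mice can be made, and sex, Cre and genotype cannot be told apart.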

Other observations

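A small unnamed cluster held both cycling markers (Mki67, Top2a, Stmn1) and mature SP markers (Klf2, Ccr7, S1pr1), with 37 WT and 13 cKO cells. Its 40 genes summed to 5259 CPM in WT and 2553 CPM in cKO, against 4996 and 3395 CPM in mature SP-like cells and 730 and 618 CPM in other cycling cells. Without Ifi27l2a the WT sum was 3046 CPM, against 3917 CPM in mature SP-like cells. Ifi27l2a alone stood at 2213 CPM in WT and 571 CPM in cKO.

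DN-like cells had their own profile. Bst2 stood at 328 CPM in WT and 349 CPM in cKO there, above its mature SP-like levels of 165 and 118 CPM, while Ifi27l2a was at 12.3 and 24.9 CPM and Slfn1 at 1.76 and 3.94 CPM. Erythroid cells of WT (43 cells) had 570 CPM of the 40 genes, of which Isg20 made up 224 CPM, Isg15 116 CPM and Rsad2 96.9 CPM, on 60, 31 and 26 UMIs, with Ifi27l2a at 0 UMIs. The 4 erythroid cells of cKO were too few to compare.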
